A study of Mus musculus with 9 samples.

Results

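The genes described are those for cytosolic ribosomal proteins, the proteins of the large 60S and small 40S subunits. They were chosen by name: every non-control probe whose gene name is Rpl or Rps followed by a number, with or without further letters, or is Rplp0, Rplp1, Rplp2 or Rpsa, with the Rps6k kinases left out. The name rule found 203 spots, 194 probes and 86 gene names, out of 55681 probes and 34650 gene names on the array. Of these names, 76 are core ribosomal proteins, with 45 in the large and 31 in the small subunit, and 10 are paralogs or other matched names that are kept apart. No probe is named Rpl37. One probe had no unflagged spot on every array, and 2 probes stayed near background on all arrays, which left 191 probes, of which 179 are core probes. All 86 names kept at least 1 measured probe.

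RNA came from primary microglia of fms-EGFP mouse pups (P0-P1), whose EGFP transgene marks cells that use the c-fms (Csf1r) promoter. Pup brains were pooled, with 2 brains per flask, and the cells were grown in medium with GM-CSF, the growth factor that all 3 groups shared. Control microglia (time 0) received no phagocytic stimulus, and the Ph3h and Ph24h groups were fed apoptotic human SH-SY5Y neuroblastoma cells for 3 h or 24 h. The SH-SY5Y cells carried the membrane dye CM-DiI and had been killed with 3 µM staurosporine for 4 h. Each group had 3 one-color arrays, from 3 independent experiments according to the series design. No unfed culture was taken at 3 h or 24 h, so feeding and time in culture cannot be told apart. In bulk RNA of this kind, fewer cells of a type and less RNA per cell cannot be told apart either.

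Ribosomal proteins bind the ribosomal RNAs and are made in nearly equal numbers for each new ribosome. Their messengers are among the most abundant in growing cells. In mammals most of these messengers start with a C followed by a run of pyrimidines, the 5′ terminal oligopyrimidine or TOP motif, through which mTORC1 and Larp1 control their translation, so that protein output can change with little change in messenger. Many ribosomal protein genes also have processed copies elsewhere in the genome with near-identical sequence, and probe-level results for such genes are uncertain for that reason.

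The 9 arrays differed in overall brightness along with the groups. The 75th percentile of processed signal, which was the scaling unit, ranged over 356 to 473 intensity units for the controls, 185 to 211 for Ph3h and 156 to 161 for Ph24h, and no probe was saturated. All levels are log2 of processed signal relative to that percentile, and a gene was represented by its brightest probe. Of 35 SH-SY5Y marker genes, 28 were measured. Of these, 13 were not well above background on any control array, among them Hand2, Isl1 and Chga, and 22 rose at 3 h and 23 at 24 h. Their summed level was taken in units of the array's 75th percentile. It lay between 8.81 and 9.74 on control arrays, between 1530 and 1660 on Ph3h arrays and between 2300 and 2650 on Ph24h arrays. Vgf made up most of the fed sums, with mean log2 levels of -2.49 in control, 10.4 at 3 h and 11.13 at 24 h. It was well above background on all control arrays, and the paper lists it among the genes most expressed in its qPCR of phagocytic microglia. Of 23 measured microglia and macrophage markers, 21 were well above background on all control arrays, with sums of 2900 to 3160, 3870 to 4160 and 2830 to 2890 in the 3 groups. By call, 12 of these 23 rose and 5 fell at 3 h, whereas 15 fell at 24 h and 3 rose. The paper found low homology to the human transcriptome for most array probes. It also found degraded RNA in SH-SY5Y cells after 24 h of staurosporine, and no labelling of new RNA in apoptotic ones. From this the paper proposes that the arrays detected microglial changes only. Whether human RNA added to the ribosomal protein values was not tested here.

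All 76 core genes lay above the 95th percentile of level over the genes tested, the lowest being Rps21 at percentile 95.4. At 3 h against control, 43 core genes were higher and 1 was lower (limma, Benjamini-Hochberg adjusted p below 0.05, n = 3 arrays a group), with a median log2 fold change of 0.32. This direction held only with the 75th percentile and, at a median of 0.08, with array-median scaling, and it flipped to -0.13 with quantile normalization, -0.14 with normexp and quantile normalization and -0.12 in the authors' value table. Among all 24102 genes tested, 27.9% were higher and 26% lower, and the median was 0.07.

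The split of calls moved with it. With quantile normalization 16 core genes were higher and 28 lower at 3 h, with array-median scaling 25 and 7, with normexp 14 and 30, and the values of the authors' table gave 17 and 25. Quantile normalization, normexp and the value table gave nearly the same counts and are not independent of each other. The median of all genes tested moved too, to -0.07 with quantile normalization and to -0.18 with array-median scaling. The arrays had 2 scan times, one shared by replicates 1 and 2 of every group and the other by replicate 3, read here as slide 1 and slide 2. Within slide 1 and slide 2, the core medians with the 75th percentile were 0.34 and 0.26 at 3 h, 0.20 and 0 at 24 h, and -0.14 and -0.20 from 3 h to 24 h. Relative to all genes, the core median at 3 h was 0.26 higher with the 75th percentile and with array-median scaling, and 0.06 lower with quantile normalization.

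**Figure D1:**
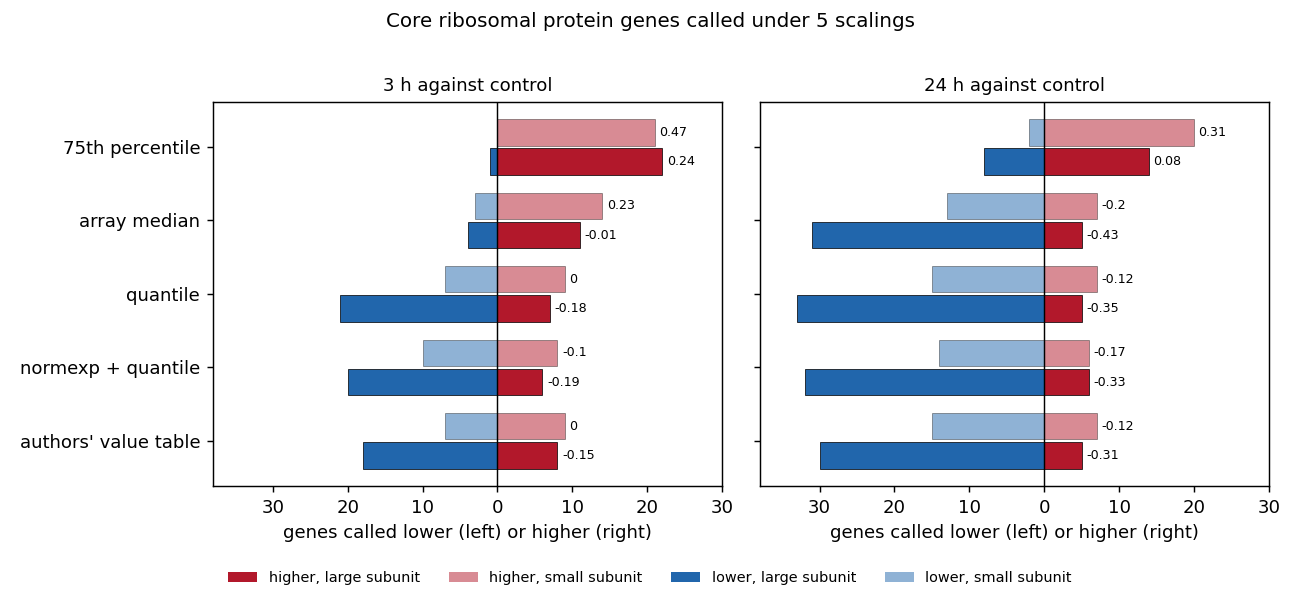
Numbers of core ribosomal protein genes called higher (red, to the right) or lower (blue, to the left) at adjusted p below 0.05, by scaling (vertical axis), at 3 h and 24 h against control, with dark bars for the large and pale bars for the small subunit. The number at the end of each bar pair is the median log2 fold change of that subunit, which at 24 h is above 0 only with the 75th percentile.

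At 24 h against control, 34 core genes were higher and 10 lower with the 75th percentile, with a median of 0.13 that flipped to between -0.38 and -0.26 under the other 4 scalings. Those gave 12 higher each and 44 to 48 lower. With the 75th percentile, 29.9% of all genes were higher and 33.2% lower. Under the other 4 scalings 15.9% to 24.8% of all genes were higher and 36.4% to 50.9% lower. The median of all genes was 0.01, and it moved to -0.14 with quantile normalization and to -0.50 with array-median scaling. Relative to all genes, the core median was 0.13 higher with the 75th percentile and with array-median scaling. It was 0.12 to 0.22 lower than that of all genes under the rest.

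From 3 h to 24 h, 24 of the 76 core genes (31.6%) were lower, 1 was higher and 51 were not called with the 75th percentile, while over all genes 24% were lower and 20.4% higher. With quantile, array-median, normexp and value-table scaling, 26, 64, 30 and 26 were lower, against 22.8%, 35.3%, 22.9% and 22.3% of all genes. The count of 24 dropped to 12 without Ph24h 1, 14 without Ph24h 3, 15 without Ph3h 1, 16 without Ph3h 3 and 3 on slide 1 alone. The core median was -0.15 where that of all genes was 0.04, and it lay between -0.42 and -0.15 across scalings. The core genes with the lowest adjusted p in this contrast were Rpl10a, at -0.44 (adjusted p = 0.0015), and Rpl21, at -0.37 (adjusted p = 0.0034). Rpl24, which bridges the subunits, was the 1 gene called higher, at 0.27 (SE 0.08, adjusted p = 0.031).

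The subunits differed in how many genes were called. Of the 31 small-subunit genes, 21 rose and none fell at 3 h, with a median of 0.47, and 20 rose and 2 fell at 24 h, with a median of 0.31. Of the 45 large-subunit genes, 22 rose and 1 fell at 3 h (median 0.24), and 14 rose and 8 fell at 24 h (median 0.08). At 3 h 67.7% of small-subunit and 48.9% of large-subunit genes rose, against 27.9% of all genes. At 24 h these shares were 64.5% and 31.1%, against 29.9%. Of all genes, 26% fell at 3 h and 33.2% at 24 h, the latter against 6.45% (small) and 17.8% (large). Under the other 4 scalings the 3 h medians lay between -0.10 and 0.23 (small) and between -0.19 and -0.01 (large), and the 24 h medians flipped to between -0.20 and -0.12 (small) and -0.43 and -0.31 (large) at 24 h. The small-subunit median was above the large-subunit median under all 5 scalings in both comparisons. The difference between subunits was not tested.

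Among small-subunit genes, Rps15, an assembly and export protein of the 40S head, had log2 levels of 7.28, 7.28 and 7.33 on the control arrays, 8.83, 8.82 and 8.91 at 3 h and 8.90, 8.93 and 8.75 at 24 h. Every fed array was above every control array. The change was 1.56 at both times (SE 0.07, adjusted p = 1.9e-06 and 1.4e-06 by limma), or 2.94-fold at 3 h. Its second probe changed by 1.01 and 0.97. Rps18, another protein of the 40S head, changed by 1.09 and 1.05 on its brighter probe and by 1.10 and 1.01 on the other. Rps15 and Rps18 were the only core genes with more than 1 probe in which every probe was called higher under all 5 scalings, at both times. Their lowest change under any scaling was 0.46, for the second Rps15 probe at 24 h.

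Rps27, a zinc-finger protein of the 40S body, changed by 1.55 and 1.59 on its brightest probe. Rps4x, the X-linked small-subunit protein, changed by 1.00 at 3 h and 0.95 at 24 h on its brighter probe, which the array design places on chromosome 3. Its other probe, placed on chromosome X, was at 0.21 and -0.08 and was not called. The brightest probes of Rps27 and Rps4x remained higher under all 5 scalings. Rps19 (0.86 and 0.74) and the brightest probe of Rps16 (0.84 and 0.79), both of 40S head proteins, kept their 3 h calls under all 5 scalings but not their 24 h calls. The other Rps16 probes were at 0.18 and 0.21 at 3 h and at -0.04 and 0.02 at 24 h.

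Rps6, the substrate of the S6 kinases, had control levels of 8.46, 8.42 and 8.55, Ph3h levels of 8.48, 8.35 and 8.43 and Ph24h levels of 8.11, 8.20 and 8.10 on its brightest probe. The 3 h arrays overlapped the controls, with a change of -0.06 (adjusted p = 0.47), and the 24 h arrays all lay lower, with a change of -0.34 (SE 0.06, adjusted p = 0.0026). Another Rps6 probe was called higher at both times, by 0.81 and 0.70. Rps3, which lines the messenger entry channel, was at -0.11 and -0.13 (adjusted p = 0.13 and 0.082).

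Rps27a, made as a fusion with ubiquitin, rose by 0.34 at 3 h (adjusted p = 0.0059), a direction that flipped to -0.23 with quantile normalization, and was at -0.02 at 24 h. Rpsa, also known as the laminin receptor, rose by 0.57 and 0.29 on its brightest probe, of which the 24 h change flipped to -0.16 with quantile normalization. Its dimmest probe fell by 1.17 on the log2 scale at 24 h.

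The stalk proteins Rplp0, Rplp1 and Rplp2, which recruit elongation factors to the large subunit, were called higher at both times on their brightest probes with the 75th percentile. Rplp1 had levels of 9.20, 9.59 and 9.53 in control, 10.42, 10.42 and 10.35 at 3 h and 10.42, 10.53 and 10.32 at 24 h. All fed arrays were above all control arrays, by 0.95 at 3 h and 0.98 at 24 h (SE 0.11, adjusted p = 2.7e-04 and 1.8e-04). Rplp2 changed by 0.87 and 1.04 and Rplp0 by 0.90 and 0.84 on their brightest probes. Rplp1 and Rplp2 stayed higher under all 5 scalings, with lowest changes of 0.22 and 0.29, while the 24 h change of Rplp0 flipped to -0.13 with normexp, where its 3 h change of 0.08 was not called. Rpl12, at the base of the stalk, was at 0.10 at 3 h (adjusted p = 0.33) and fell by 0.26 at 24 h (adjusted p = 0.02) on its brightest probe, and its other probe rose by 0.86 and 0.65.

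Rpl5 and Rpl11, which with 5S ribosomal RNA form the particle that binds Mdm2, went apart. Rpl5 had levels of 7.08, 7.05 and 7.10 in control, 6.87, 6.99 and 6.78 at 3 h and 6.51, 6.58 and 6.49 at 24 h. Both fed groups lay below the controls without overlap. It fell by 0.20 at 3 h (SE 0.07, adjusted p = 0.038) and by 0.55 at 24 h (adjusted p = 2.6e-04), and its 1 probe was called lower under all 5 scalings. The 3 h call of Rpl5 was lost with the replicate number as a block, and in each fit without Control 1, 2 or 3, Ph3h 1 or 3, or Ph24h 1. Rpl11 rose by 1.10 and 1.13 on its brightest probe (adjusted p = 7.9e-05 and 5.1e-05), under all 5 scalings, but its other probes did not. Of 3 further Mdm2-binding proteins, Rpl23 rose by 0.71 and 0.60, the latter of which flipped to -0.03 with quantile normalization, Rps7 was at 0.08 and -0.15, and Rps3 was as above.

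The large-subunit gene with the largest rise was Rpl15, a protein of the 60S core, at 1.35 and 1.27 (SE 0.08, adjusted p = 1.1e-05 at both times) on its brightest probe. The largest falls at 24 h after Rpl5 were those of Rpl10a, of the L1 stalk, by 0.49 (adjusted p = 5.7e-04), and Rpl36a, by 0.35 (adjusted p = 0.0028). All 3 probes of Rpl36a were called lower at 24 h under all 5 scalings. Rpl13a, which takes part in the interferon-gamma translation silencing complex, was at 0.07 and -0.05 (adjusted p = 0.46 and 0.6), and 2 of its probes were lower at 24 h under every scaling.

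Rpl27a is a large-subunit gene that was among the qPCR reference genes of the study. The study reported these genes as constant across times and treatments, and chose HPRT for its qPCR of phagocytic microglia. On its brightest probe here, Rpl27a rose by 0.51 at 3 h (adjusted p = 6.4e-04) and 0.29 at 24 h (adjusted p = 0.0091). With quantile normalization that probe was at 0.19 (adjusted p = 0.033) and -0.03 (adjusted p = 0.72), so that the 24 h direction flipped, and another Rpl27a probe, at -0.31 and -0.48, became the brightest. Levels of the probe that rose by 0.51 were 8.12, 8.13 and 8.05 in control. They were 8.68, 8.57 and 8.58 at 3 h and 8.32, 8.51 and 8.34 at 24 h, with no overlap with control. A second probe was at 0.02 and -0.16 (adjusted p = 0.86 and 0.12). The dimmest was at 5.03, 5.19 and 5.13, then 5.52, 5.43 and 5.46, then 4.55, 4.63 and 4.61, above control at 3 h and below it at 24 h.

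Since the brightest probe over all arrays stood for each gene, single probes were also tested. Of the 179 core probes, 75 were higher and 5 lower at 3 h with the 75th percentile, against 26.3% and 24.7% of all 34385 probes, and 57 were higher and 52 lower at 24 h, against 28.2% and 31.8%. With quantile normalization these splits turned to 32 higher against 71 lower (3 h) and 22 against 124 (24 h). With array-median scaling they were 39 and 31 at 3 h and 18 and 126 at 24 h. The shares of all probes called under these scalings were not counted. The probe medians with the 75th percentile were 0.19 at 3 h and -0.05 at 24 h.

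Called the same way under all 5 scalings were 25 probes of 22 genes higher and 5 probes of 5 genes lower at 3 h. At 24 h these were 15 probes of 12 genes higher and 51 probes of 35 genes lower. From 3 h to 24 h, 48 probes of 32 genes were lower and none higher under all 5 scalings. Calls shared by all 5 scalings were counted for core probes only. Whether their shares differ from those of all probes was therefore not tested. Probes of Rpl5, Rpl13a, Rpl14 and Rps3 were among those lower at 3 h.

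Probes of 1 gene often did not move together. Of the 59 core genes with at least 2 measured probes, 11 had every probe higher at 3 h, 29 had some and 19 had none, with the 75th percentile. The median span between the highest and the lowest probe of a gene was 0.38 at 3 h and 0.54 at 24 h on the log2 scale. At 24 h, 14 genes had 1 probe called higher and another called lower, namely Rpl7, Rpl7a, Rpl12, Rpl15, Rpl17, Rpl23, Rpl27, Rpl27a, Rpl30, Rpl31, Rps2, Rps3a1, Rps6 and Rpsa. Of these only Rpl15, Rpl31 and Rps3a1 had both directions called under all 5 scalings.

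**Figure D2:**
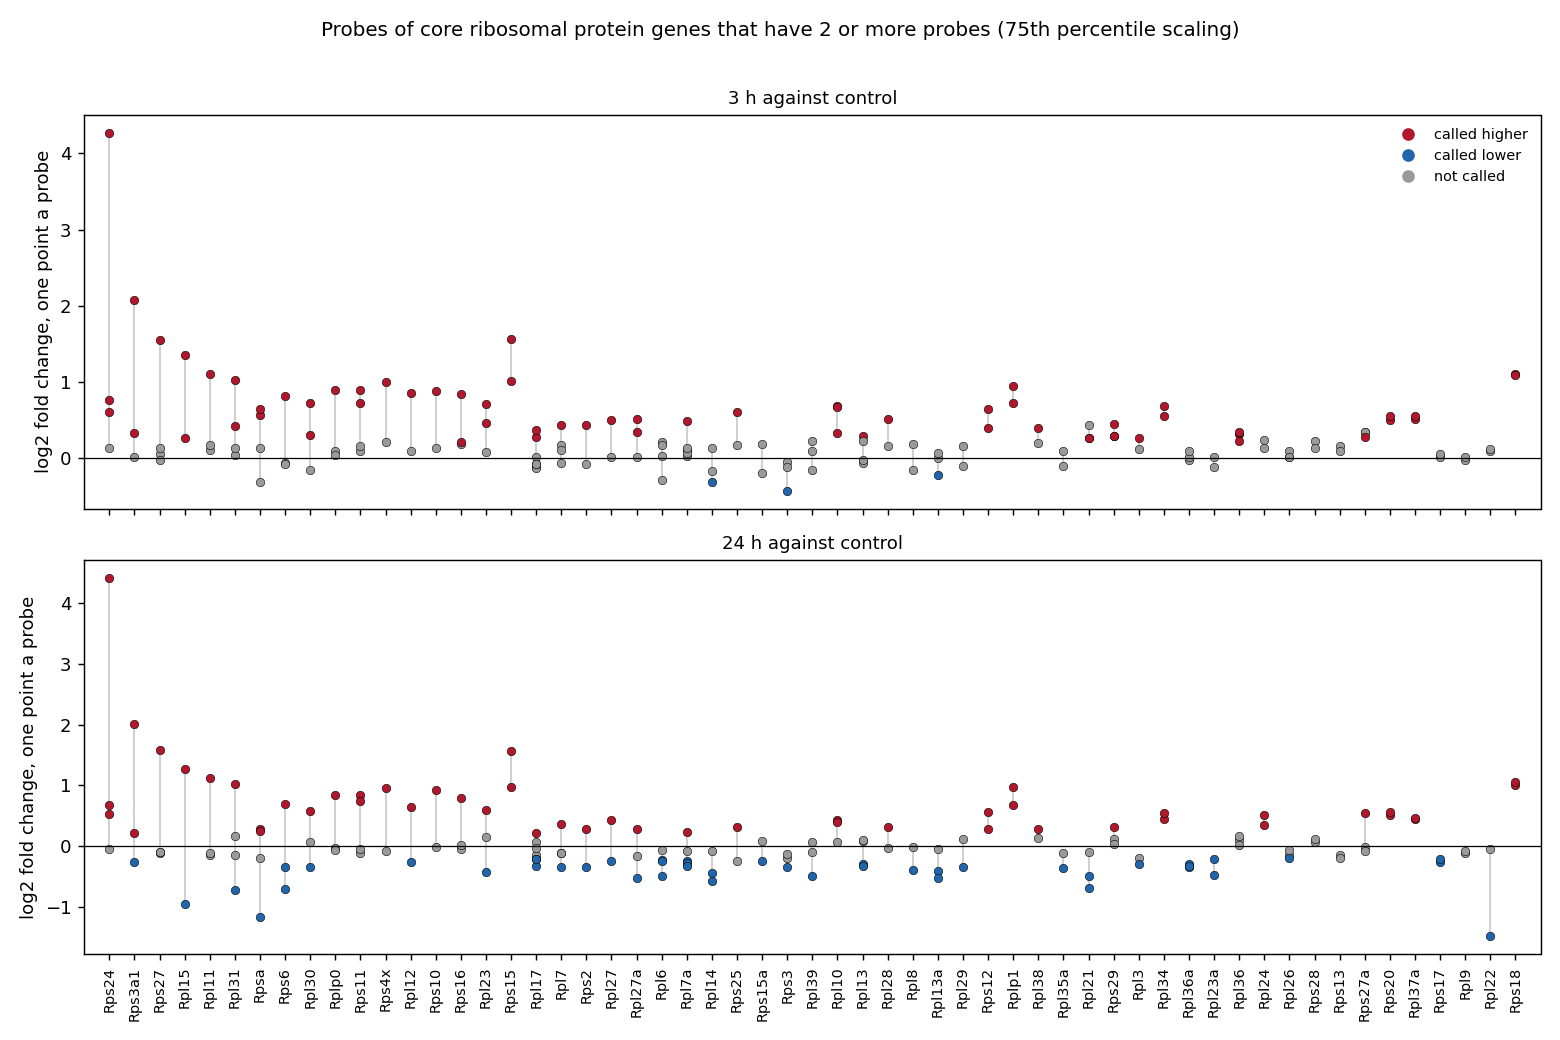
Log2 fold change of every measured probe (1 point each) of the core genes named on the axis, each with 2 or more probes, at 3 h (top) and 24 h (bottom) against control with 75th percentile scaling, ordered by the span at 3 h. Red probes were called higher, blue ones lower and grey ones neither, and the splits of red and blue turn under other scalings. Single probes of Rps24 and Rps3a1 lie above all others of their gene, and a probe of Rpl22 lies lowest at 24 h.

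The widest span was in Rps24, a small-subunit protein whose messenger has alternatively spliced 3′ ends. One probe had levels of 4.16, 4.12 and 4.03 in control, 8.42, 8.34 and 8.36 at 3 h and 8.56, 8.62 and 8.39 at 24 h. Fed arrays thus lay far above control on this probe, by 4.27 and 4.42 (SE 0.08, adjusted p = 6.3e-08 and 3.7e-08), and by at least 3.91 under every scaling. The 3 other Rps24 probes changed by 0.13 to 0.76 at 3 h.

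For Rps3a1, a small-subunit protein near the messenger exit, 1 probe had levels of 6.48, 6.39 and 6.44 in control, 8.55, 8.54 and 8.45 at 3 h and 8.48, 8.49 and 8.36 at 24 h. It rose by 2.08 and 2.01, without overlap, while the other probes were at 0.33 and 0.01 at 3 h. The last of these fell by 0.26 at 24 h. Probes of Rps27 split likewise. On 1 probe levels were 8.39, 8.52 and 8.55 in control, 10.00, 10.04 and 10.06 at 3 h and 10.03, 10.16 and 10.03 at 24 h, and the 3 others changed by -0.03 to 0.13 at 3 h and overlapped the controls.

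**Figure D3:**
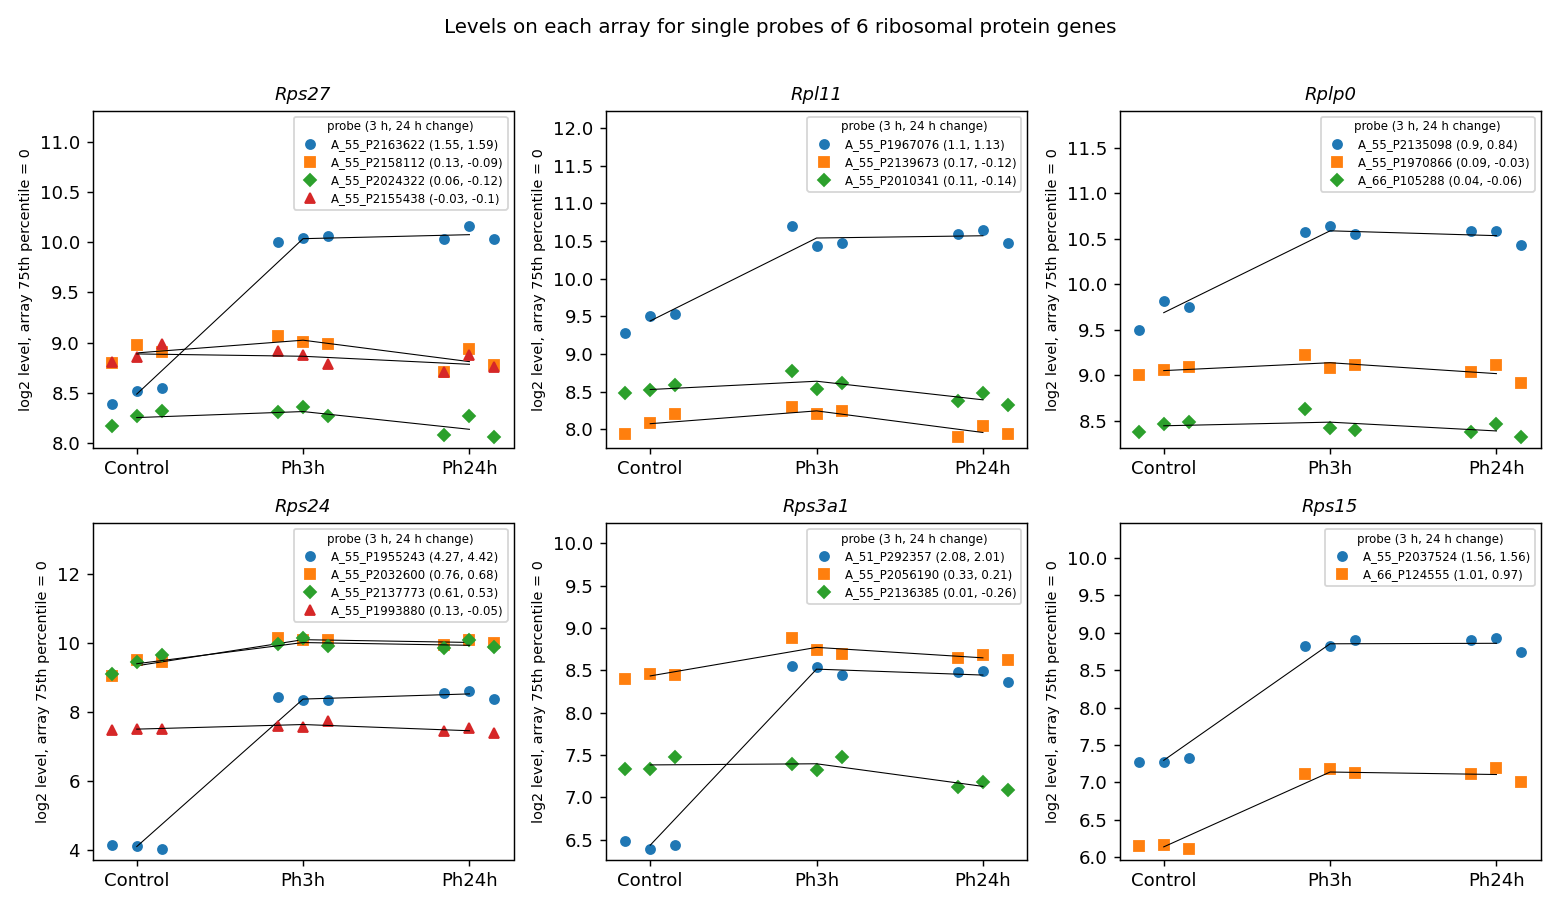
Log2 level (array 75th percentile set to 0) of every probe of Rps27, Rpl11, Rplp0, Rps24, Rps3a1 and Rps15 on the 9 arrays, with a black line through the group means and the 3 h and 24 h changes in the key; levels of different probes cannot be compared with each other. In the first 5 genes 1 probe rises more than the rest, and in Rps15 both rise, by 1.56 and 1.01 at 3 h, directions that held under all 5 scalings except that of Rplp0 at 24 h.

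Where 2 probes of a gene cover nearly the same stretch, their letters show how close a probe called higher lay to one that was not. The first 30 of the 60 letters of such probes are given 5′ to 3′, with mm9 coordinates from the file headers, and letters of runs of at least 12 that the partner also holds are in capitals. The Rpl11 probes lie on the minus strand at chr4:135605902-135606224 and chr4:135605879-135606201, those of Rplp0 on the plus strand at chr5:116013404-116013463 and chr5:116013397-116013456, and those of Rps10 on the minus strand at chr17:27767387-27767446 and chr17:27767367-27767426.
Rpl11 A_55_P1967076 (1.10 at 3 h): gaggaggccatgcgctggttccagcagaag
Rpl11 A_55_P2010341 (0.11 at 3 h): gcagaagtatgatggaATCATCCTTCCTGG
Rplp0 A_55_P2135098 (0.90 at 3 h): aagagtcggaGGAATCAGATGAGgatatgg
Rplp0 A_55_P1970866 (0.09 at 3 h): gcaaaggaagagtcagtGGAATCAGATGAG
Rps10 A_55_P2051047 (0.88 at 3 h): cggctttggtcgtggacgtgGTCAGCCACC
Rps10 A_66_P140711 (0.13 at 3 h): GTCAGCCACCTCAGTGAAGTTGGAGTTTAT

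The Rpl11 probes overlap by 37 aligned letters with 2 substitutions, C33T and G39A, counted from the 5′ end of A_55_P1967076. The rising probe had levels of 9.28, 9.51 and 9.53 in control and at least 10.44 on every Ph3h array, and the other went from 8.48, 8.52 and 8.59 to 8.77, 8.54 and 8.61. Fed and control arrays were apart on the first and overlapped on the second. With quantile normalization the pair was at 0.48 and -0.23.

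The Rplp0 probes overlap by 53 aligned letters with 5 substitutions, A15G, T17A, A31G, C42T and C51T, counted from the 5′ end of A_55_P1970866, the probe at 0.09 (adjusted p = 0.35). The rising Rplp0 probe had control levels of 9.50, 9.81 and 9.75 and 3 h levels of 10.57, 10.64 and 10.55, all higher. With quantile normalization the pair was at 0.20 and -0.31. The Rps10 probes share 40 letters with no substitution in the overlap, and the probe at 0.13 reaches further to the 3′ side. Their levels were 9.58, 9.87 and 9.83 against 10.73, 10.63 and 10.55 at 3 h on the first, with no overlap, and 8.98, 9.09 and 9.06 against 9.21, 9.10 and 9.20 on the second (adjusted p = 0.18). With quantile normalization that pair was at 0.15 and -0.28, of which the first was no longer called.

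Over all core genes, 25 probe pairs overlapped with at least 1 substitution. Their 3 h changes differed by a median of 0.09, with a range of 0.01 to 0.99, and the widest gaps were those of Rpl11, Rplp0, Rpl7a, Rpl14 and Rpl17. The 141 pairs of a gene that did not overlap differed by a median of 0.31, up to 4.14 for Rps24. The 4 Rps27 probes are an example, since 2 of them overlap with 1 substitution, G5A from the 5′ end of A_55_P2024322, and were at 0.06 and -0.03.

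The Rps24 probes shown here do not overlap, and the second starts shortly after the end of the first. The probe that rose most is split over chr14:25312695-25315015 on the plus strand, a span longer than its 60 letters. Another of the Rps24 probes lies at chr14:25315026-25315075.
Rps24 A_55_P1955243 (4.27 at 3 h): aatgttggtgctggcaaaaagtgagtggag
Rps24 A_55_P2137773 (0.61 at 3 h): gttttgctgtgatgtgcagatttctgagag

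The core probes were also grouped by their placement, shared letters and base composition. Of the 179 core probes, 11 (6.15%) were placed by the array design on another chromosome than the RefSeq gene, all 4 Rps27 probes and 3 Rps29 probes among them, with a median 3 h change of 0.29, against 0.19 for the 167 on the gene's chromosome. The 50 probes that share 30 letters or more with a probe of another gene name and the 129 that do not both had a median of 0.19. By GC content, the medians were 0.17 in the lowest group (26.7% to 40%), 0.13 in the middle and 0.29 in the highest group (46.7% to 55%).

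Some probes fell at 24 h well below the others of their gene. The second Rpl22 probe had levels of 3.30, 3.19 and 3.12 in control, 3.22, 3.29 and 3.40 at 3 h and 1.66, 1.82 and 1.69 at 24 h. Only the 24 h arrays were apart from control, by -1.48 (adjusted p = 5.6e-06), while the brighter Rpl22 probe was at -0.05 (adjusted p = 0.69). The second Rpl15 probe was at 3.75, 3.68 and 3.66 in control, 4.00, 3.93 and 3.96 at 3 h and 2.69, 2.80 and 2.73 at 24 h, first above and then below control without overlap. Rps4x, Rps7, Rps10, Rps16, Rps18, Rps19, Rps24, Rpl14, Rpl21, Rpl22, Rpl24 and the probe pairs shown were picked for naming after their values were seen.

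The paralogs and other matched names varied in direction. Rpl10l, an intronless copy of Rpl10 known from testis, was not well above background on any control array (-6.85, -7.18 and -6.80) on its brighter probe and reached 5.72, 5.61 and 5.46 at 3 h and 5.50, 5.57 and 5.40 at 24 h. This was at least 1610-fold higher at 3 h and at least 1490-fold higher at 24 h (adjusted p = 2.8e-09 and 2.3e-09), with the dim side set to the array's lowest signal well above background. It was called higher at 3 h under all 5 scalings. The 13 SH-SY5Y markers that were likewise not well above background on any control array varied widely. At 3 h Chga and Scg2 were at least 717-fold and 1680-fold higher, and Mycn at least 4.03-fold. Over all 28 measured SH-SY5Y markers the median log2 change at 3 h, with bounds where they applied, was 1.88.

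A second Rpl10l probe was not well above background on any control or Ph3h array and was so on 1 Ph24h array, with levels of -2.51, -5.46 and -4.15 at 24 h. At 24 h the computed bound was 2.02-fold higher, but the Ph24h mean behind it included arrays that were not well above background. The limma adjusted p of 0.017 belongs to the log2 change of 2.41 without that bound. The brighter Rpl10l probe is at chr12:67384868-67384927 on the minus strand, and its opening is shown because it carries this rise.
Rpl10l A_55_P2027995 (at least 1610-fold higher at 3 h): accaagctgcagaacaaggagcacgtgatc

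Rpl7l1, a relative of Rpl7, had levels of 1.65, 1.56 and 1.59 in control, 0.95, 1.03 and 0.97 at 3 h and 0.84, 0.88 and 0.83 at 24 h. Both fed groups lay lower without overlap, by -0.62 and -0.75 (SE 0.05, adjusted p = 5.4e-05 and 1.5e-05), and the calls held under all 5 scalings. Rpl3l, the striated-muscle form of Rpl3, was well above background on all 3 control arrays and on none of the fed arrays, with levels of -3.88, -4.26 and -4.23 in control, -4.07, -3.85 and -4.77 at 3 h and -5.83, -4.92 and -5.79 at 24 h. No fold is given for it, since its signal in fed cells was not well above background.

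Rps27l, a p53-induced relative of Rps27, Rpl22l1, a relative of Rpl22, and Rpl36al, an expressed copy of Rpl36a, were not called at 3 h (0.05, 0.20 and -0.16) and fell at 24 h by 0.52, 0.47 and 0.43 (adjusted p = 0.001, 0.0014 and 0.0061). Their 24 h calls held under all 5 scalings. Rpl22l1 had levels of 6.35, 6.37 and 6.46 in control and 5.94, 6 and 5.82 at 24 h. At that time the brightest Rps27 probe was at 1.59, while the other Rps27 probes, at -0.12, -0.1 and -0.09, were not called. The Rpl22 probes were at -0.05 and -1.48. All 3 Rpl36a probes were called lower, the brightest at -0.35. Rpl36al thus fell with Rpl36a, while for Rps27 and Rpl22 the comparison depended on the probe.

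Of the other matched names, Rps12l2 rose by 0.55 and 0.48 (adjusted p = 0.0012 and 0.0019), directions that flipped to -0.07 and -0.22 with quantile normalization. Rpl39l, a germ-cell relative of Rpl39, rose by 0.27 at 3 h (adjusted p = 0.04) and was at -0.22 at 24 h (adjusted p = 0.067). Rps4l was at -0.19 and -0.20 (adjusted p = 0.1 and 0.082). Rps19bp1, a binding partner of Rps19 and not a ribosomal protein, was at 0.06 at 3 h and fell by 0.16 at 24 h (adjusted p = 0.042).

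**Figure D4:**
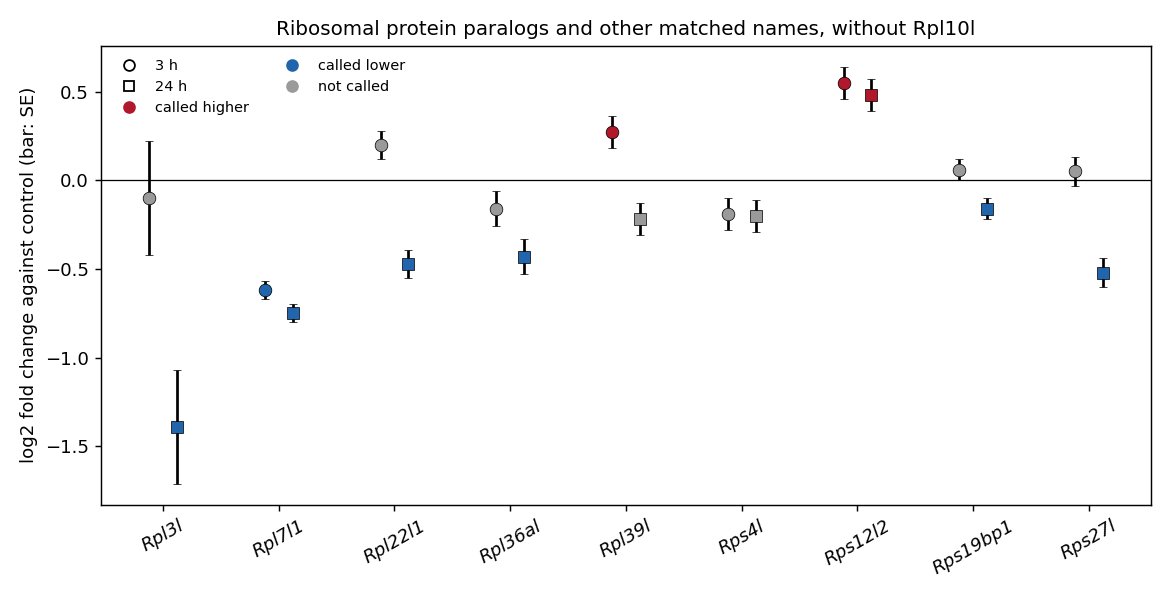
Log2 fold change against control with its standard error for the matched names that are not core genes, at 3 h (circles) and 24 h (squares), colored by call (red higher, blue lower, grey not called), with 75th percentile scaling. Rpl10l is left out, Rpl3l was not well above background in fed cells, and the rises of Rps12l2 flip with quantile normalization. Rpl7l1 is lower at both times, by 0.62 and 0.75.

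The regression on time that the study used for its microglia arrays was also fitted to single probes. An F test alone called 133 of the 179 core probes (74.3%), against 64.2% of all probes, and with R squared over 0.9 and a fold change over 1.5 it kept 31 (17.3%), against 30.7% of all probes.

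Annotated starts were compared with the TOP motif for the 56 core genes in the RefSeq promoter table (GRCm38.p6). A C followed by at least 4 pyrimidines, on the sense strand, lay at the annotated start in 13 of 56 core genes (23.2%) and in 3.01% of all 27025 genes, and within 10 bases of it in 34 (60.7%) and 34.4%. The median 3 h change was 0.20 in the 13 genes with the run at the start and 0.29 in the other 43. A match of letters describes the annotated start only. Windows of 30 bases, from 10 before the start, are shown for a gene with the largest rise that has the run at the start and one that has not, and for the gene that fell most, with the run in capitals. They are chr3:90213629-90213658 (minus strand), chr10:80292421-80292450 (plus strand) and chr5:107900518-107900547 (plus strand).
Rps27: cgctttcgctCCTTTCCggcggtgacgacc
Rps15: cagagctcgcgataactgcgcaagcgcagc
Rpl5: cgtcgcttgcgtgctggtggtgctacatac

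Other genes of the translation machinery were taken from lists. A few ribosomal proteins carry other names. Fau encodes a fusion with a ubiquitin-like part, and Gnb2l1 encodes Rack1. Fau and Gnb2l1 rose by 0.24 and 0.46 at 3 h, but under the 4 other scalings neither was called higher, and their 24 h changes flipped.

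Of 16 elongation factors and other TOP messengers, 7 rose (43.8%) and none fell at 3 h (median 0.16). At 24 h 4 rose (25%) and 8 fell (50%), with a median of -0.19. Of all genes, 27.9% rose and 26% fell at 3 h, and 29.9% rose and 33.2% fell at 24 h. Under the other scalings 4 of these messengers were higher at 3 h with medians of -0.08 to 0.01. At 24 h 11 or 12 of them were lower there, as were 36.4% to 50.9% of all genes. Eef1a1, which brings aminoacyl-tRNA to the ribosome, rose by 1.03 and 0.97, and Eef1g, a subunit of its exchange factor, by 1.57 and 1.36. Hnrnpa1, an RNA-binding protein with a TOP messenger, rose by 0.81 at 3 h and fell by 0.66 at 24 h on its brightest probe, and the 24 h change flipped to 1.41 with the mean over its probes. Of 34 initiation factors, 17 rose and 7 fell at 3 h (50% and 20.6%, against 27.9% and 26% of all genes). At 24 h 10 rose and 14 fell (29.4% and 41.2%, against 29.9% and 33.2% of all genes). The 3 h split turned to 4 to 10 higher and 9 to 11 lower under other scalings, where 17.9% to 23.2% of all genes were higher and 30.5% to 35.3% lower. Eif4a1, the cap-complex helicase, rose by 0.94 and 0.86, Eif3m, of the eIF3 complex, rose by 0.94 and by 0.72, and Eif3c, a subunit of the eIF3 scaffold, fell by 0.75 and 1.05.

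Ribosome assembly factors went lower under every scaling. Of 80 measured, 11 rose and 37 fell at 3 h (13.8% and 46.2%, median -0.16). At 24 h 8 rose and 60 fell (10% and 75%, median -0.47). Of all genes, 27.9% rose and 26% fell at 3 h, and 29.9% rose and 33.2% fell at 24 h. Under the other scalings 59 to 75 assembly factors were lower at 24 h, where 36.4% to 50.9% of all genes were lower. The pseudouridine synthase Dkc1 fell by 1.10 and 1.34, Pes1, of the PeBoW complex, by 0.84 and 1.38, and the acetyltransferase Nat10 by 0.42 and 1.25. Of 24 genes of RNA polymerase I and its factors, 3 rose and 11 fell at 3 h (12.5% and 45.8%). At 24 h 2 rose and 16 fell (8.33% and 66.7%), with 17 to 22 lower at 24 h under the other scalings. Polr1a, the largest subunit, fell by 0.60 and 1.38, and Myc, a factor that raises ribosome production, fell by 3.13 and 1.59. Mycn, which is also on the SH-SY5Y marker list, was not well above background in control and rose at least 4.03-fold and 7.52-fold.

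Mitochondrial ribosomal proteins, a separate set for the mitochondrial ribosome, went lower too. Of 77 measured, 5 rose and 44 fell at 3 h (6.49% and 57.1%, median -0.27). At 24 h 4 rose and 61 fell (5.19% and 79.2%, median -0.44). Of all genes, 27.9% rose and 26% fell at 3 h, and 29.9% rose and 33.2% fell at 24 h. Under the other scalings 53 to 66 were lower at 3 h and 57 to 76 at 24 h. There 30.5% to 35.3% and 36.4% to 50.9% of all genes were lower. Mrpl50 fell by 1.07 and 1.08, Mrpl16 by 0.56 and 1.11 and Mrpl42 by 0.27 and 1.08. These medians lay 0.33 and 0.45 below that of all genes.

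Of 30 genes of TOR and S6 kinase signalling, 7 rose and 9 fell at 3 h (23.3% and 30%, against 27.9% and 26% of all genes), and 10 rose and 15 fell at 24 h (33.3% and 50%, against 29.9% and 33.2%). Pdcd4, an inhibitor of Eif4a1, rose by 1.89 and 1.80, and Sesn1, which inhibits mTORC1, fell by 1.51 and 2.34. Ddit4l, a TOR inhibitor, was not well above background on any control or Ph3h array and was so on 1 Ph24h array. Its computed bound was 2.08-fold higher, from a Ph24h mean that included arrays not well above background. Of 17 genes of the eIF2alpha kinases and ribosome rescue, 3 rose and 8 fell at 3 h (17.6% and 47.1%). At 24 h 2 rose and 13 fell (11.8% and 76.5%). Eif2ak3, the endoplasmic reticulum kinase PERK, fell by 1.17 and 0.58, and Gcn1l1, an activator of Gcn2 on stalled ribosomes, by 1.16 and 0.88. Ltn1, the ligase that tags stalled chains, was at 0.13 at 3 h (adjusted p = 0.31) and fell by 1.16 at 24 h. The share of genes lower in both lists was as high or higher under the other scalings at 3 h, as was that of all genes (30.5% to 35.3%).

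**Figure D5:**
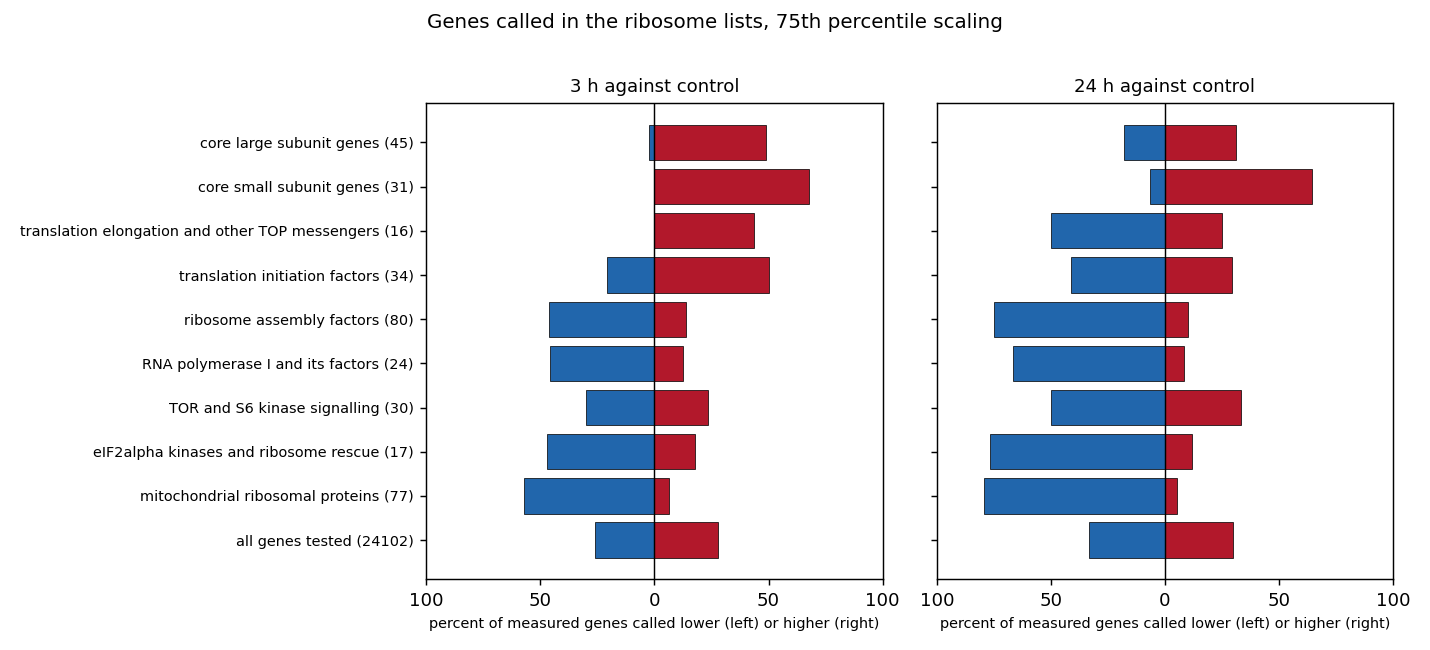
Percent of measured genes (number in parentheses) in each list called higher (red, to the right) or lower (blue, to the left) at 3 h and 24 h against control with 75th percentile scaling, with all genes tested at the bottom. Of assembly factors and mitochondrial ribosomal proteins, 37 of 80 and 44 of 77 are lower at 3 h, against 26% of all genes. At 24 h 60 of 80 and 61 of 77 are lower, against 33.2%. With quantile normalization the core genes of both subunits together turn to 16 higher and 28 lower at 3 h and 12 and 48 at 24 h. For the small subunit at 3 h, 8 to 14 genes are higher and 3 to 10 lower under the other scalings.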

How the data were processed

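Total RNA of 9 microglia cultures (3 control, 3 Ph3h, 3 Ph24h) was labelled with Cy3 and hybridised to one-color Agilent mouse arrays of 60-letter probes. Scanner output was deposited for every array. Its processed signal is an intensity from which Agilent Feature Extraction 10.7.3.1 (named in the submitters' processing notes) had removed background, and no step between arrays had been applied. A second deposited file holds log2 values of 36655 probes from GeneSpring GX, without probes absent from every sample. Each probe in it is centred over the arrays, and how its arrays were scaled is not stated in the sources used here. Probe coordinates are on mm9, per the file headers.

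Spots of a probe were averaged, and outlier-flagged and control spots were left out. Log2 intensities minus each array's 75th percentile were fitted with 3 group means in limma 3.58.1 (R 4.3.3). Of 55681 probes, 34385, for 24102 gene names, had the scanner's flag for signal well above background on 1 or more arrays. Each name was represented by the probe with the highest mean over all arrays, which favors probes that rise. P-values were adjusted by Benjamini-Hochberg over all genes, or all probes, and called at 0.05. The study's methods regress on time as a continuous variable and state no degree, and the quadratic used here has, with 3 times, the same fitted values. Where a group had no array with that flag for a probe, a lower bound of the fold was computed. The adjusted p-values printed beside such bounds test the change without the bound. The fit was tested on simulated data. The members and lists were chosen with earlier results of these data known. Named genes were all names that are not core, 12 core genes picked for their role or use, the 4 core genes with the largest rise and fall at each time, core genes with probes called both ways, and up to 3 called genes per other list. Marker lists of astrocytes, oligodendrocyte lineage, and fibroblasts and endothelium had sums of at most 19.9, 478 and 22.8 units of the 75th percentile on any array. Alternatives were other scalings, background correction, filters, the value table, the mean over probes, replicate or slide blocks, and each array left out. Protein identities of paralogs were not computed, and some genes and a probe sequence are not reported here. RefSeq symbols matched 189 of 191 probes.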

Additional observations from a re-analysis of the deposited data

Results flagged for a closer look

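For 3 items the changes at 3 h and at 24 h were both called, in opposite directions, and the difference between the times was itself tested. Hnrnpa1, on its brightest probe, was at 2.49, 2.58 and 2.50 in control, 3.31, 3.28 and 3.42 at 3 h and 1.74, 1.90 and 1.95 at 24 h, a difference of -1.47 from 3 h to 24 h (SE 0.07, limma adjusted p = 5.6e-06). The mean over its probes gave 1.41 at 24 h against control (adjusted p = 9.5e-07). The second probe of Rpl15 changed by 0.27 at 3 h (adjusted p = 0.0077) and -0.96 at 24 h (adjusted p = 1.1e-05), a difference of -1.22 (adjusted p = 6.3e-06), while the brighter probe was at 1.35 and 1.27. The dimmest probe of Rpl27a changed by 0.35 (adjusted p = 0.003) and -0.52 (adjusted p = 3.4e-04), a difference of -0.87 (adjusted p = 4.2e-05).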

How the results depend on the processing

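The direction of the core genes against control rested on the scaling between arrays, and the cause was not tested. At 3 h the core median of 0.32 became -0.13 with quantile normalization, 0.08 with array-median scaling, -0.14 with normexp and quantile normalization and -0.12 in the value table, with 16, 25, 14 and 17 core genes higher in place of 43 and 28, 7, 30 and 25 lower in place of 1. At 24 h the median of 0.13 became -0.28, -0.38, -0.28 and -0.26, with 12 genes higher under each of these in place of 34 and 48, 44, 46 and 45 lower in place of 10. Of all genes, 17.9% to 23.2% were higher and 30.5% to 35.3% lower at 3 h under these scalings. At 24 h the shares of all genes were 15.9% to 24.8% higher and 36.4% to 50.9% lower. From 3 h to 24 h, array-median scaling gave a median of -0.42 in place of -0.15, with 64 lower and 0 higher. Of all genes, 35.3% were lower and 10.3% higher there. Of core probes, the same 4 settings gave 32, 39, 30 and 32 higher and 71, 31, 78 and 74 lower at 3 h (in place of 75 and 5), and 22, 18, 24 and 22 higher and 124, 126, 125 and 126 lower at 24 h (in place of 57 and 52). Array-median scaling gave 159 lower and 0 higher probes from 3 h to 24 h (in place of 68 and 2). The shares of all probes under these settings were not counted. For probes, array-median scaling, normexp and the value table were chosen after seeing the data, as were all alternatives for the other gene lists.

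The mean over the probes of a gene gave 16 lower at 24 h and 2 lower at 3 h. Slide 1 alone, with fewer arrays, gave 3 lower at 24 h (median 0.20), 0 lower at 3 h, and 3 lower and 0 higher from 3 h to 24 h. No filter, with more genes tested, gave 0 lower at 3 h, and 15 lower and 0 higher from 3 h to 24 h, and only the 2 groups compared gave 0 lower at 3 h. Leaving out each array gave 39 to 45 higher and 0 to 1 lower at 3 h (median 0.29 to 0.34), 28 to 34 higher and 5 to 12 lower at 24 h (median 0.07 to 0.18), and 0 to 1 higher and 12 to 27 lower from 3 h to 24 h (median -0.20 to -0.12). The count lower at 24 h was 5 without Control 2, and 6 without Ph24h 1 or without Ph24h 3. The count lower from 3 h to 24 h was 12 without Ph24h 1, 14 without Ph24h 3 and 15 without Ph3h 1.

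With the replicate number as a block, 43 core genes were higher and 0 lower at 3 h, 34 and 9 at 24 h, and 1 and 18 from 3 h to 24 h. The numbers did not pair the arrays, since deviations from group means correlated between -0.06 and 0.04 in 9 same-numbered pairs, and in 6 of 18 comparisons of an array with another group the best match had its own number. With the slide as a block these counts were 42 and 1, 33 and 9, and 1 and 21.

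With quantile normalization, 3 h changes against control turned to -0.45 for Fau, -0.16 for Gnb2l1, -0.28 for Rpl12, -0.25 for Rpl13a, -0.01 for Rpl17, -0.33 for Rpl27, -0.31 for Rpl27a (another probe), -0.26 for Rpl36a, -0.07 for Rps12l2, -0.23 for Rps27a and -0.02 for Rps3a1. With quantile normalization, 24 h changes against control turned to -0.42 for Fau, -0.43 for Gnb2l1, -0.19 for Rpl17, -0.03 for Rpl23, -0.48 for Rpl27a (another probe, and -0.03 on the same), -0.16 for Rpl31, -0.22 for Rps12l2, -0.03 for Rps2, -0.12 for Rps3a1 and -0.16 for Rpsa. With array-median scaling, 3 h changes against control turned to -0.01 for Fau. With array-median scaling, 24 h changes against control turned to -0.16 for Fau, -0.29 for Gnb2l1, -0.45 for Rpl17, -0.22 for Rpl27a, -0.35 for Rpl31, -0.14 for Rpl7, -0.03 for Rps12l2, -0.22 for Rps2, -0.3 for Rps3a1 and -0.22 for Rpsa. With normexp and quantile normalization, 3 h changes against control turned to -0.33 for Fau, -0.13 for Gnb2l1, -0.27 for Rpl12, -0.29 for Rpl13a, -0.31 for Rpl27, -0.28 for Rpl36a (another probe, and -0.32 on the same), -0.27 for Rpl7a, -0.12 for Rps12l2 and -0.22 for Rps27a. With normexp and quantile normalization, 24 h changes against control turned to -0.18 for Eif3m (another probe, and 0.80 on the same), -0.26 for Fau, -0.37 for Gnb2l1, -0.25 for Rpl17, -0.1 for Rpl23, -0.01 for Rpl27a, -0.16 for Rpl31, -0.01 for Rpl7, -0.13 for Rplp0, -0.21 for Rps12l2, -0.03 for Rps2, -0.11 for Rps3a1 and -0.21 for Rpsa. In the value table, 3 h changes against control turned to -0.45 for Fau, -0.16 for Gnb2l1, -0.28 for Rpl12, -0.25 for Rpl13a, -0.01 for Rpl17, -0.33 for Rpl27, -0.26 for Rpl36a, -0.07 for Rps12l2, -0.23 for Rps27a and -0.02 for Rps3a1. In the value table, 24 h changes against control turned to -0.42 for Fau, -0.43 for Gnb2l1, -0.2 for Rpl17, -0.03 for Rpl23, -0.03 for Rpl27a, -0.22 for Rps12l2, -0.03 for Rps2, -0.12 for Rps3a1 and -0.16 for Rpsa. With the mean over the probes of a gene, 3 h changes against control turned to 0.23 for Rps6. With the mean over the probes of a gene, 24 h changes against control turned to 1.41 for Hnrnpa1, 0.2 for Rpl12, 0.09 for Rpl27, -0.13 for Rpl27a, -0.05 for Rpl7, -0.03 for Rps2 and -0.2 for Rpsa. Keeping each gene on the same probe, an alternative chosen after seeing the data, moved the brightest probe back in 2 core genes with quantile normalization and 5 with normexp, with 3 h core medians of -0.12 under both. Of the named genes' values under alternatives, 3369 kept their side of the threshold, and their direction where called. Another 122 passed the threshold newly, 149 no longer passed, and 83 changed direction with a call before or after the change. Arrays give no counts, so that their number limits the precision, and probes near background limit Rpl10l, Rpl3l, Mycn and Ddit4l.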
